A study of Mus musculus with 105 samples.

Results

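The genes described here are 41 enzymes and carriers that take glucose to carbon dioxide: 13 of glycolysis, 10 of pyruvate use and 18 of the tricarboxylic acid (TCA) cycle, of 20756 genes in the footprint and mRNA tables. They were taken by name from a fixed list, which was chosen with earlier results of these data known. All 41 were found in the footprint, mRNA and poly(A) tail tables. The samples were mouse oocytes. Ribosome footprints (Ribo-seq, fragments of mRNA covered by ribosomes) were measured in 20 single metaphase II (MII) oocytes and 18 single full-grown oocytes (FGO) of wild type. Footprints were also measured in MII oocytes labelled Btg4 knockout (KO) and Btg4 heterozygous (Het) in 3 libraries each, and polyadenylated mRNA (Smart-seq2) in 2 libraries each. Tail lengths came from 2 Btg4 KO and 1 Btg4 Het library of MII oocytes and from 1 library each of wild-type MII oocytes and wild-type FGO, the last of which carries the label SN. Per the labels' protocols the females were C57BL/6, 8 or 5 weeks old, and were given PMSG and hCG at 5 IU each. The same ages and doses are listed for every sample, so which of them applied to FGO, MII or Btg4 oocytes is not given. The sources used here do not give the kind of Btg4 allele, the number of oocytes per library or the number of animals.

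Glycolysis splits glucose into pyruvate in the cytosol. Pyruvate is exchanged with lactate by lactate dehydrogenase or enters the mitochondrion through its carrier, where the pyruvate dehydrogenase complex turns it into acetyl-CoA for the TCA cycle. Mammalian oocytes are known to take up little glucose and to rely on pyruvate, which the surrounding cumulus cells supply. Growing oocytes store mRNAs, stop transcription at full size, and during maturation to MII change which stored mRNAs are translated, deadenylated and degraded. BTG4 is an adaptor that brings the CCR4-NOT deadenylase to maternal mRNAs, so that a Btg4 KO oocyte is used to ask which mRNAs persist when this decay is impaired.

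Values are FPKM, read fragments scaled to gene length and library size, so that levels can be set side by side between genes. In the Btg4 libraries, KO was compared with Het by limma on log2(FPKM + 1) over all genes whose mean reached 1 FPKM, and a gene is said to rise or fall where its Benjamini-Hochberg adjusted p is under 0.05. Changes in log2 below are KO minus Het on that scale, which understates changes of low genes. Libraries carry no spike-in that the labels name, so each value is a share of its library. In such a bulk library, less RNA per oocyte and fewer oocytes cannot be told apart. Genes with at least 1 FPKM numbered 8814 to 9151 in KO mRNA libraries and 7959 to 8494 in Het mRNA libraries, 7062 to 8398 in KO footprint libraries and 5899 to 7588 in Het footprint libraries, 3645 to 6351 in single MII oocytes and 4338 to 8826 in single FGO. All 10 oocyte markers examined were detected in both groups of all 3 data sets. Markers of granulosa and cumulus cells (17 genes) summed to 11.4 FPKM in each KO mRNA library and 15.1 to 16.3 FPKM in Het mRNA libraries. In Btg4 footprint libraries they summed to 32 to 61.9 FPKM in KO and 17.1 to 65.4 FPKM in Het. Single oocytes had 1.13 to 39.3 FPKM in MII and 0 to 115 FPKM in FGO. Blood and immune markers (10 genes) summed to 0 to 129 FPKM in single MII oocytes and 0 to 651 FPKM in single FGO. In mRNA they summed to 16.4 FPKM in KO 1, of which Lyz2 made up 14.6 FPKM, to 0.105 FPKM in KO 2 and to 0 in both Het libraries, with all 4 hemoglobin genes at 0. In footprints they were at 0 in all 6 Btg4 libraries but Het 2, where Lyz2 had 20.4 FPKM. The Btg4 gene itself had 1754 and 2345 FPKM in KO mRNA libraries against 3293 and 4774 FPKM in Het mRNA libraries, a log2 change of -0.97 that did not pass (adjusted p = 0.0889). Its footprints were at 1148, 971 and 907 FPKM in KO against 7009, 6346 and 6134 FPKM in Het (log2 change -2.69, adjusted p = 0.00654).

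Most footprints of the 41 genes fell on 2 of them. Bpgm, whose product makes and breaks down 2,3-bisphosphoglycerate and has a weak phosphoglycerate mutase activity, ranked 4 of all genes by mean footprints in single MII oocytes and 19 in FGO. Ldhb, the heart-type subunit of lactate dehydrogenase that favours the use of lactate, ranked 41 in MII oocytes and 7 in FGO. Bpgm made up 85.2% of the footprint FPKM of the 41 genes in the median MII oocyte (range 46.9% to 93.3%), against 29.5% in the median FGO (7.4% to 36.3%). Ldhb made up 9.34% in the median MII oocyte (2.01% to 43.3%), against 53.3% in the median FGO (45.9% to 74.2%). The ranges of both shares do not overlap between the stages, but the 2 shares are tied, since these genes dominate the sum. As a share of all footprint FPKM, Ldhb had 0.0375% to 0.913% in MII oocytes and 0.392% to 1.6% in FGO, with overlap. Bpgm had 0.989% to 2.45% in MII oocytes and 0.13% to 0.637% in FGO, without overlap. The other members were far lower. Without Bpgm, the summed glycolysis footprints had a median of 74.8 FPKM in MII oocytes (6.66 to 211) and 223 FPKM in FGO (42.6 to 558). Without Ldhb, the genes of pyruvate use and the TCA cycle summed to a median of 398 FPKM in MII oocytes (99.4 to 634) and 450 FPKM in FGO (74.3 to 1227).

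The single oocytes are cells, not animals, and no label ties them to females. Each stage was therefore taken as 1 sample, without a test. Changes are the log2 ratio of (mean FPKM + 1) in MII oocytes over FGO, with at least 1 or at most -1 (a change of 2-fold) set as the size named. Of the 41 genes, 5 had a ratio of at least 1 and 19 a ratio of at most -1, where 27.9% and 31.3% of all 8788 genes did. The median ratio was -0.80 over the 41 genes and -0.15 over all genes. Glycolysis had 2 genes up and 5 down of 13 (median -0.58), pyruvate use 0 up and 6 down of 10 (median -1.03), and the TCA cycle 3 up and 8 down of 18 (median -0.71). Pyruvate use and the TCA cycle together had a median of -0.94, which puts the glycolysis median 0.36 above theirs, a difference that is -0.05 when each oocyte is scaled to the same total. Among the 19 MII oocytes and 9 FGO with no hemoglobin gene above 0, 6 of 39 genes were at or above 1 and 15 at or below -1, where 34.7% and 25.2% of 8272 genes were and the median of all genes was 0.24. For the respiratory chain, which takes up the electrons of the cycle, 70 of 84 genes were at or below -1 and the median was -1.94. The heat map of single-oocyte footprints shows 2 bright lines, Bpgm and Ldhb, and in most other genes darker MII than FGO columns.

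**Figure D1:**
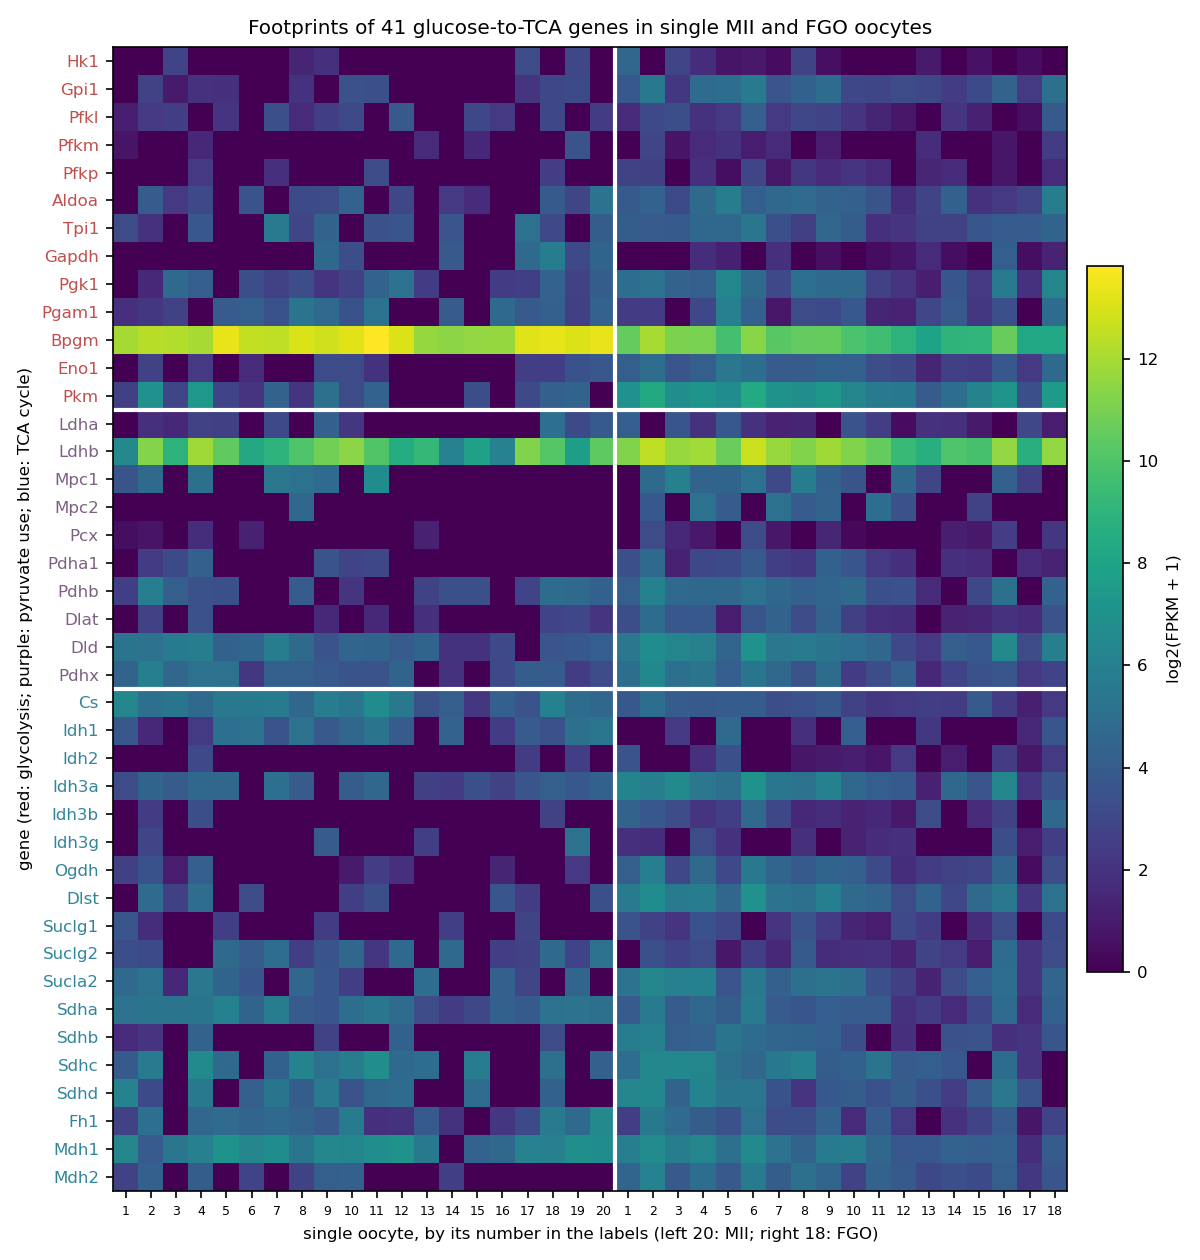
Footprints of the 41 genes, log2(FPKM + 1) as colour, in 20 single MII oocytes (left) and 18 single FGO (right), 1 column per oocyte. Bpgm is bright in every MII oocyte (2698 to 14462 FPKM), and Ldhb is brighter in most FGO (404 to 6805 FPKM) than in most MII oocytes (69 to 3754 FPKM).

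Bpgm had the highest ratio of the 41 genes, 2.43. Its footprints were at 2698, 6532 and 14462 FPKM in the lowest, median and highest MII oocyte, against 260, 1088 and 4080 FPKM in the lowest, median and highest FGO. In 98.3% of all pairs of an MII oocyte with an FGO the MII oocyte was higher, and the ranges overlap only at their ends. Idh1, the cytosolic NADP-dependent isocitrate dehydrogenase, was at 0, 14.2 and 42.1 FPKM in MII oocytes (17 of 20 above 0) and at 0, 0 and 25.6 FPKM in FGO (7 of 18 above 0), a ratio of 1.96. Cs, citrate synthase, the entry to the TCA cycle, was at 3.49, 36.6 and 101 FPKM in MII oocytes and at 1.28, 9.7 and 30.5 FPKM in FGO, a ratio of 1.82, and was above 0 in every oocyte of both stages. MII oocytes were above FGO in 88.9% of pairs for Cs and in 77.2% for Idh1.

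Gapdh and Suclg2 were the other 2 genes with a ratio of at least 1. Gapdh, glyceraldehyde-3-phosphate dehydrogenase, was at 0, 0 and 55 FPKM in the lowest, median and highest MII oocyte (7 of 20 above 0) and at 0, 0.412 and 16.3 FPKM in FGO (11 of 18 above 0). Its ratio of 1.75 comes from a few MII oocytes: only 34.2% of pairs had the MII oocyte higher, and with medians over oocytes in place of means the ratio is -0.50. Suclg2, the GTP-specific beta subunit of succinyl-CoA ligase, was at 0, 8.42 and 34.6 FPKM in MII oocytes and 0, 3.64 and 27.4 FPKM in FGO, a ratio of 1.04, with overlapping ranges. Below the named size, Mdh1, cytosolic malate dehydrogenase, had a ratio of 0.82, Sdha 0.74 and Fh1, fumarase, 0.69.

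The 5 lowest ratios were those of Dlst, Gpi1, Ogdh, Pkm and Sdhb. Dlst and Ogdh encode the E2 and E1 components of the 2-oxoglutarate dehydrogenase complex. Dlst was at 0, 0 and 29.4 FPKM in MII oocytes (9 of 20 above 0) and at 3.49, 34.5 and 128 FPKM in FGO (18 of 18 above 0), a ratio of -2.69. Ogdh was at 0, 0 and 16.4 FPKM in MII oocytes and at 0.354, 11.2 and 60.1 FPKM in FGO, a ratio of -2.38. Each was above 0 in 9 of 20 MII oocytes and in 18 of 18 FGO. Summed over the oocytes of a stage, Dlst had 40 reads in MII oocytes and 780 in FGO, and Ogdh 47 and 813. Fh1, with a ratio of 0.69, had 139 reads in MII oocytes and 288 in FGO. So 1 read stood for more FPKM in MII oocytes, and a 0 there does not show absence.

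Gpi1, glucose-6-phosphate isomerase, was at 0, 0.504 and 9.81 FPKM in MII oocytes and at 3.72, 12.3 and 49.7 FPKM in FGO (ratio -2.40). Pkm, the pyruvate kinase of most tissues, was at 0, 6.85 and 163 FPKM in MII oocytes and at 9.45, 111 and 349 FPKM in FGO (ratio -2.38). Sdhb, the iron-sulfur subunit of succinate dehydrogenase, was at 0, 0 and 20 FPKM in MII oocytes (6 of 20 above 0) and at 0, 14.5 and 67.3 FPKM in FGO (16 of 18 above 0), a ratio of -2.33. For Pkm, MII oocytes 2 and 4, which earlier results on these data set apart from the other MII oocytes, were at 128 and 163 FPKM while the other 18 did not pass 33.2 FPKM, and without the pair the ratio is -3.63. These 2 oocytes were also among the highest MII oocytes for Ldhb, at 2490 and 3754 FPKM, where the other 18 were between 69 and 2710 FPKM. Without them the ratio of Ldhb is -1.55, against -1.22 with them, and that of Bpgm 2.48.

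Subunits of 1 complex had unlike ratios between the stages, several of them resting on few MII reads. Of succinate dehydrogenase, Sdha (flavoprotein), Sdhb, Sdhc and Sdhd (membrane anchors) had ratios of 0.74, -2.33, -0.03 and -0.57. Of mitochondrial NAD-dependent isocitrate dehydrogenase, Idh3a, Idh3b and Idh3g had -1.63, -2.11 and 0.32. The value of Idh3g rests on MII oocyte 19, at 35.3 FPKM: only 4 of 20 MII oocytes were above 0, the MII oocyte was higher in 18.9% of pairs, and without that oocyte the ratio is -0.46. Of succinyl-CoA ligase, the shared alpha subunit Suclg1 had -1.10, the ATP-specific beta subunit Sucla2 had -1.13 and Suclg2 had 1.04. Cytosolic Mdh1 and mitochondrial Mdh2 had 0.82 and -1.96, and cytosolic Idh1 and mitochondrial Idh2 had 1.96 and -0.85. Each of these ratios compares 1 group of 20 cells with 1 group of 18 and carries no test. Summed over the MII oocytes, Idh2 had 4 reads, Idh3b 5, Sdhb 10, Suclg1 12 and Idh3g 14. In FGO these genes had 45, 99, 212, 75 and 41 reads. The sizes of their ratios are therefore uncertain.

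In Btg4 KO oocytes 13 member mRNAs rose, most of them those of TCA cycle genes. Of the 36 members tested in mRNA, 13 rose and 0 fell, where 18.9% of all 8865 genes rose and 0.62% fell. Unadjusted p was under 0.05 for 18 of them, and without KO 1, the library with Lyz2, 11 rose. The median log2 change was 0.78 over the members and 0.14 over all genes. Glycolysis had 2 rises of 11 tested (median 0.76), a share near that of all genes. Pyruvate use had 3 of 8 (median 0.79) and the TCA cycle 8 of 17 (median 1.26). Pyruvate use and the TCA cycle together had 11 of 25 and a median of 0.97, so that the glycolysis median differed from theirs by -0.21, or by 0.26 without Het 1, and whether the shares of rises differ was not tested. The respiratory chain, set beside them, had 56 rises of 82 and a median of 1.69. The untested members Hk1, Pfkm, Ldha, Pcx and Idh2, were under the filter in mRNA, with at most 1.15 FPKM in any library. The plot of log2 changes shows every member tested in either assay.

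**Figure D2:**
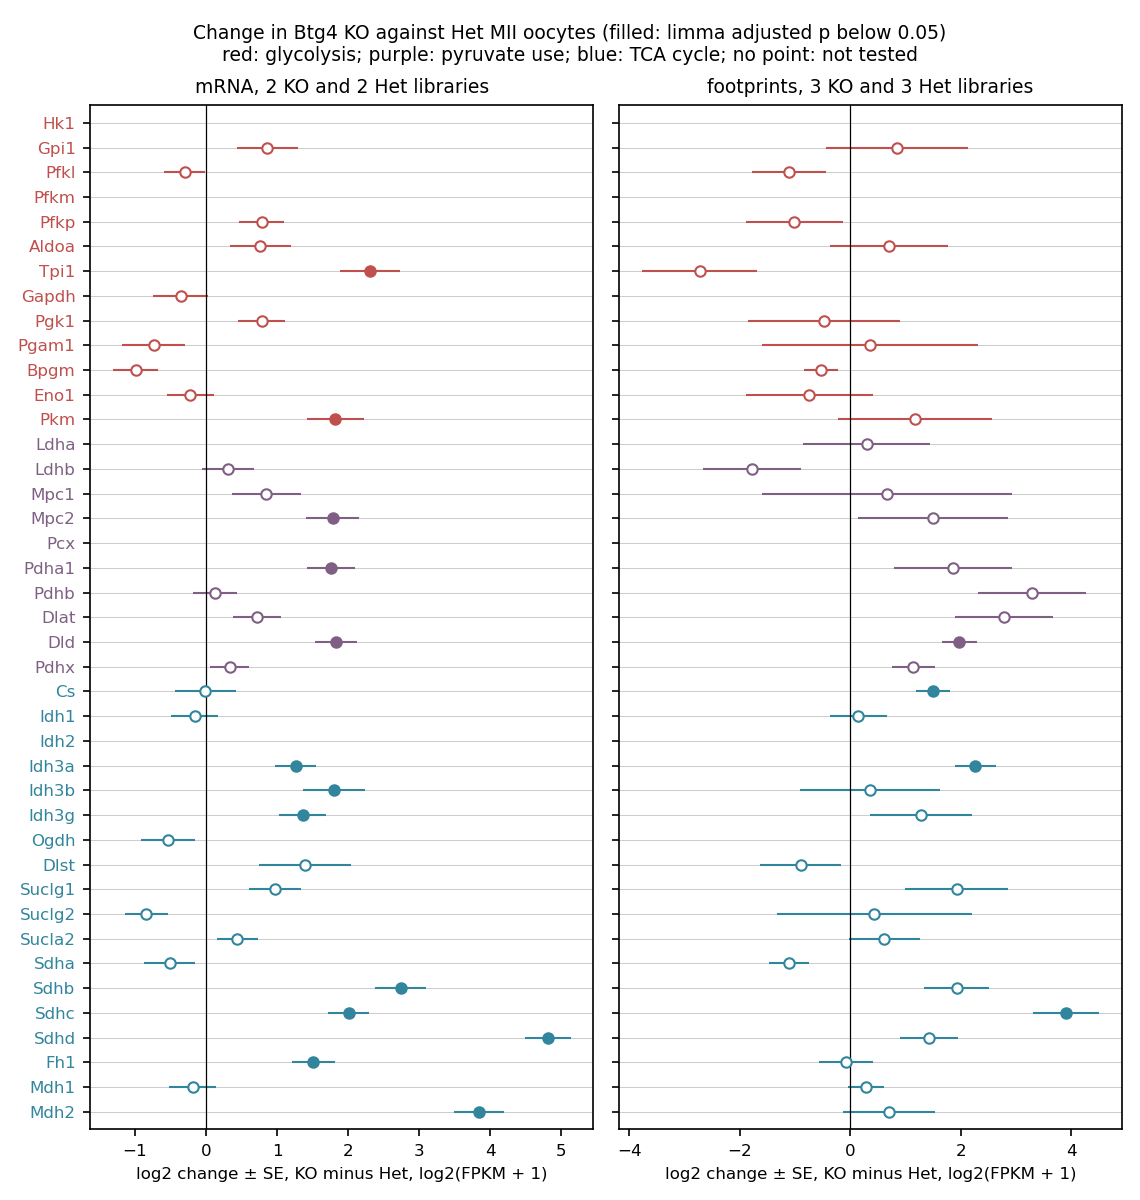
Log2 change with its SE, Btg4 KO minus Het, of each member in mRNA (left) and footprints (right), and filled where the limma adjusted p was under 0.05. In mRNA 13 points are filled, all to the right of 0 and 8 of them TCA cycle genes, and in footprints 4 are filled.

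The largest mRNA changes were those of 2 succinate dehydrogenase subunits and mitochondrial malate dehydrogenase. Sdhd, a membrane anchor of succinate dehydrogenase, had 279 and 304 FPKM in KO against 11.7 and 7.5 FPKM in Het, a 30.3-fold higher mean (log2 change 4.81, SE 0.32, adjusted p = 0.000225). Mdh2, which makes oxaloacetate from malate in the mitochondrion, had 27.8 and 35.5 FPKM in KO against 1.31 and 1.21 FPKM in Het, 25.1-fold higher (3.84, SE 0.35, adjusted p = 0.000573). Sdhb had 20.5 and 25.8 FPKM in KO against 2.23 and 2.99 FPKM in Het (2.74, SE 0.36, adjusted p = 0.00181). In all 3 genes each KO library was several times above each Het library. Sdhc, the other membrane anchor, had 197 and 225 FPKM in KO against 52.2 and 50.6 FPKM in Het (2.01, SE 0.29, adjusted p = 0.00261). Sdha, the catalytic subunit of the same complex, did not pass: 40.4 and 22.9 FPKM in KO against 47 and 40.7 FPKM in Het (-0.51, SE 0.36, adjusted p = 0.348). For Sdha the KO libraries were the lower ones, and among them KO 2 was the lowest. By rank among all genes, Sdhd stood at 253 in KO and 3888 in Het, and Sdha at 2209 in KO and 1450 in Het.

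Further along the cycle, all 3 subunits of the NAD-dependent isocitrate dehydrogenase rose. Idh3a, the catalytic subunit, had 71.3 and 72.8 FPKM in KO against 28.2 and 30.8 FPKM in Het (1.26, adjusted p = 0.0194). Idh3b had 9.91 and 7.24 FPKM in KO against 2.88 and 0.919 FPKM in Het (1.80, adjusted p = 0.0218), and Idh3g had 4.28 and 5.09 FPKM in KO against 1.43 and 1 FPKM in Het (1.36, adjusted p = 0.0225). The groups do not overlap in any of the 3, but Idh3a and Idh3g lose the call under several alternatives, among them without KO 1 and without KO 2, and Idh3b and Idh3g without Het 2. Fh1, which hydrates fumarate to malate, had 78.1 and 70.2 FPKM in KO against 27.5 and 23.4 FPKM in Het (1.51, adjusted p = 0.0104). The SEs of these 4 genes were between 0.29 and 0.43.

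The other TCA cycle genes did not pass. Cs had 131 and 61.2 FPKM in KO against 119 and 68.7 FPKM in Het, overlapping groups with a change of -0.01. The cytosolic Idh1 and Mdh1 had changes of -0.16 and -0.19, also with overlapping groups. Dlst had 27.8 and 10.5 FPKM in KO against 12.2 and 2.64 FPKM in Het (1.39, SE 0.65), and passes without Het 1 (2.32) or without KO 2 (2.05). Suclg2 had 20 and 19.4 FPKM in KO against 37.1 and 34.8 FPKM in Het, a change of -0.84 that did not pass (adjusted p = 0.0939) but passes after median scaling (-1.24) and quantile normalization (-1.19), settings that move the median of all genes to -0.27 and -0.22. Suclg1, the alpha subunit that pairs with Suclg2, had 30.1 and 34.2 FPKM in KO against 12 and 20.8 FPKM in Het (0.97, adjusted p = 0.0982), and passes without Het 2 (1.35, adjusted p = 0.0404). Sucla2 and Ogdh had changes of 0.44 and -0.53.

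In pyruvate use the 3 rises were Dld, Mpc2 and Pdha1. Dld, the E3 dihydrolipoyl dehydrogenase that the pyruvate and 2-oxoglutarate dehydrogenase complexes share, had 131 and 131 FPKM in KO against 36.1 and 36.5 FPKM in Het (1.83, SE 0.29, adjusted p = 0.00376). Pdha1, the E1 alpha subunit of pyruvate dehydrogenase, had 24.1 and 21.5 FPKM in KO against 5.58 and 6.52 FPKM in Het (1.76, SE 0.34, adjusted p = 0.00875). Mpc2, a subunit of the mitochondrial pyruvate carrier, had 48.9 and 79.6 FPKM in KO against 13.9 and 21.8 FPKM in Het (1.78, SE 0.37, adjusted p = 0.0129), and does not pass without KO 2. In each of these genes every KO library was above every Het library. The partner of Mpc2, Mpc1, had 84.3 and 127 FPKM in KO against 33.8 and 95.9 FPKM in Het, with overlap (0.85, adjusted p = 0.25), and passes without Het 2 (1.59, adjusted p = 0.00553). The other parts of the pyruvate dehydrogenase complex had small changes: 0.12 for Pdhb (E1 beta), 0.72 for Dlat (E2) and 0.33 for Pdhx (the E3-binding protein), none past the threshold. Dlat had 19.2 and 19.1 FPKM in KO against 9.63 and 13 FPKM in Het (adjusted p = 0.172). Ldhb had 837 and 1524 FPKM in KO against 814 and 1020 FPKM in Het, with overlap and a change of 0.31.

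In glycolysis Tpi1 and Pkm rose. Tpi1, triosephosphate isomerase, had 13.2 and 16.6 FPKM in KO against 3.37 and 1.33 FPKM in Het (2.31, SE 0.42, adjusted p = 0.00692). Pkm had 47 and 33.3 FPKM in KO against 14.7 and 7.45 FPKM in Het (1.82, SE 0.40, adjusted p = 0.015). Without a filter on low values, where 15509 genes are tested, neither passes. Aldoa, Pgk1, Gpi1 and Pfkp had changes between 0.76 and 0.86, and Pfkl, Gapdh, Pgam1 and Eno1 between -0.74 and -0.22, none past the threshold. Gpi1 had 4.05 and 2.61 FPKM in KO against 2.49 and 0.588 FPKM in Het, and passes without Het 1 (1.43, adjusted p = 0.031). Aldoa, the muscle-type aldolase, had 22.9 and 21.3 FPKM in KO against 19.5 and 8.04 FPKM in Het, and passes without Het 1 (1.35, adjusted p = 0.0431). In both genes the Het 2 library was far below the other 3. Pgk1, phosphoglycerate kinase, had 20.6 and 18 FPKM in KO against 11.4 and 10.2 FPKM in Het (adjusted p = 0.137). Pfkp, a phosphofructokinase, had 3.31 and 2.32 FPKM in KO against 1.41 and 1.02 FPKM in Het (adjusted p = 0.133), and Pgam1, phosphoglycerate mutase, had 6.33 and 3.94 FPKM in KO against 13.1 and 6.15 FPKM in Het (adjusted p = 0.271). Of these 5 genes only Pgam1 has groups that overlap. Bpgm had 1343 and 1093 FPKM in KO against 2745 and 2105 FPKM in Het, a change of -0.99 that did not pass (SE 0.32, adjusted p = 0.0642) but does without Het 2 (-1.18). Both KO libraries were below both Het libraries for Bpgm. Every KO library was above every Het library for 21 of the 36 members and below for 6, where 38.9% and 22% of all genes did so.

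Summed over genes, TCA cycle mRNAs held 1122 and 1089 FPKM in KO against 518 and 503 FPKM in Het, and those of pyruvate use without Ldhb 497 and 589 FPKM in KO against 262 and 347 FPKM in Het. Glycolysis without Bpgm held 171 and 133 FPKM in KO against 130 and 80.7 FPKM in Het. Both KO libraries were above both Het libraries in each of these 3 sums. Bpgm made up 33.8% and 24.7% of the members' mRNA in KO against 61.4% and 51.9% in Het.

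In footprints fewer members passed, and the median of glycolysis lay on the other side of 0 from that of pyruvate use. Of 35 members tested, 4 rose and 0 fell, where 3.21% of all 8526 genes rose and 0.328% fell, and 11 had an unadjusted p under 0.05. Glycolysis had 0 rises of 10 (1 with an unadjusted p under 0.05) and a median of -0.50, pyruvate use 1 of 9 and a median of 1.5, and the TCA cycle 3 of 16 and a median of 0.66. Pyruvate use and the TCA cycle together had a median of 1.14, all genes one of 0.27 and the respiratory chain, with 0 rises of 79 (12 with an unadjusted p under 0.05), one of -0.19. Glycolysis lay 1.64 below pyruvate use and the TCA cycle by median, and between 2.25 and 0.92 below when 1 library was left out. Of the 10 glycolysis genes, 4 had a positive and 6 a negative change, with SEs as high as 1.96 (Pgam1). Pgk1 (-0.47) and Eno1 (-0.74) were negative on the log scale, while their mean FPKM was 1.31-fold and 1.19-fold higher in KO. Several rest on few reads, such as Gpi1 with 11, 1 and 0 in KO and 6, 0 and 0 in Het. The glycolysis median is therefore uncertain. The footprint libraries correlated at 0.699 to 0.815 within a genotype, less than the mRNA libraries at 0.958 and 0.966.

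The 4 footprint rises were Sdhc, Idh3a, Dld and Cs. Sdhc had 351, 517 and 299 FPKM in KO against 53.5, 24.3 and 10.6 FPKM in Het (3.91, SE 0.60, adjusted p = 0.0241). Idh3a had 137, 194 and 180 FPKM in KO against 40.7, 38.6 and 25.3 FPKM in Het (2.27, SE 0.37, adjusted p = 0.0269). Dld had 247, 363 and 277 FPKM in KO against 82.2, 67.2 and 70.9 FPKM in Het (1.98, SE 0.31, adjusted p = 0.0266). Each KO library was above each Het library in all 3 genes, as in mRNA. Cs had 342, 487 and 343 FPKM in KO against 140, 150 and 119 FPKM in Het (1.5, SE 0.30, adjusted p = 0.0494), with no overlap, while its mRNA had overlapping groups. Cs has a close relative in mouse, Csl, and its reads may be shared with it. All 4 calls end when any library other than Het 1 is left out, and that of Cs also without Het 1; the log2 changes then lie between 3.35 and 4.47 for Sdhc, 2.06 and 2.42 for Idh3a, 1.82 and 2.10 for Dld and 1.33 and 1.59 for Cs.

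Reads behind these values could be read off for 30 of the 41 members, whose low footprint FPKM are whole multiples of the value of 1 read. Sdhc had 47, 98 and 59 reads in KO against 13, 3 and 1 in Het, and Idh3a had 54, 108 and 104 reads in KO against 29, 14 and 7 in Het. Dld had 143, 298 and 237 reads in KO against 87, 36 and 29 in Het. At the other end, Sdhb had 1 read in each KO library and 0 in each Het library (3.57, 2.52 and 2.42 FPKM in KO, and listed at 0 in Het), so that a footprint change of the size of its mRNA change could not be measured at this depth. Idh3b, Idh3g, Mpc2, Pfkm, Pfkp, Hk1, Idh2 and Ogdh had at most 7 reads in any Btg4 footprint library. Hk1, Pfkm, Idh2 and Ogdh, like Gapdh and Pcx, were under the filter in footprints and were not tested. For Sdhb, Idh3b, Idh3g, Mpc2 and Pfkp the absence of a footprint call says only that a difference was not detectable.

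The members that rose in mRNA were followed in footprints. All 13 were tested there, 11 had a positive change, and Dld, Idh3a and Sdhc passed; over all genes that rose in mRNA and were tested in both, 66.6% of 1365 had a positive change and 7.33% passed. Sdhd had 339, 281 and 152 FPKM of footprints in KO against 54.8, 161 and 82.2 FPKM in Het (1.43, SE 0.52, adjusted p = 0.208), with overlap between KO 3 and Het 2. Mdh2 had 30.9, 15.9 and 9.54 FPKM in KO against 4.65, 6.09 and 31.9 FPKM in Het (0.70, adjusted p = 0.693). Its groups overlap because the Het 3 library was the highest of the 6 by FPKM. Mdh2 had 11, 8 and 5 reads in KO and 3, 2 and 8 in Het. Tpi1 had 9.84, 2.32 and 0 FPKM in KO against 32.6, 7.12 and 37.3 FPKM in Het (-2.73, SE 1.05, adjusted p = 0.234), the opposite side of 0 from its mRNA. Its values rest on 3, 1 and 0 reads in KO and 18, 2 and 8 in Het. Fh1 had 29.4, 66.1 and 35.2 FPKM in KO against 64.9, 35.6 and 34.4 FPKM in Het, with overlap and a change of -0.07. Idh3b and Idh3g had footprint changes of 0.36 (SE 1.27) and 1.28 (SE 0.92).

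Pdha1 and Mpc2 were positive but scattered. Pdha1 had 21.2, 26.7 and 6.4 FPKM in KO against 0, 7.67 and 10 FPKM in Het (1.86, SE 1.07). Mpc2 was at 0, 8.96 and 17.2 FPKM in KO and at 6.99, 0 and 0 FPKM in Het (1.5, SE 1.36). Pkm had 56.6, 4.64 and 7.8 FPKM in KO against 24.4, 8.89 and 0 FPKM in Het (1.17, SE 1.40). In Pkm the number-1 library of each genotype was the highest of its group. The plot of single libraries sets mRNA and footprints of these genes side by side.

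**Figure D3:**
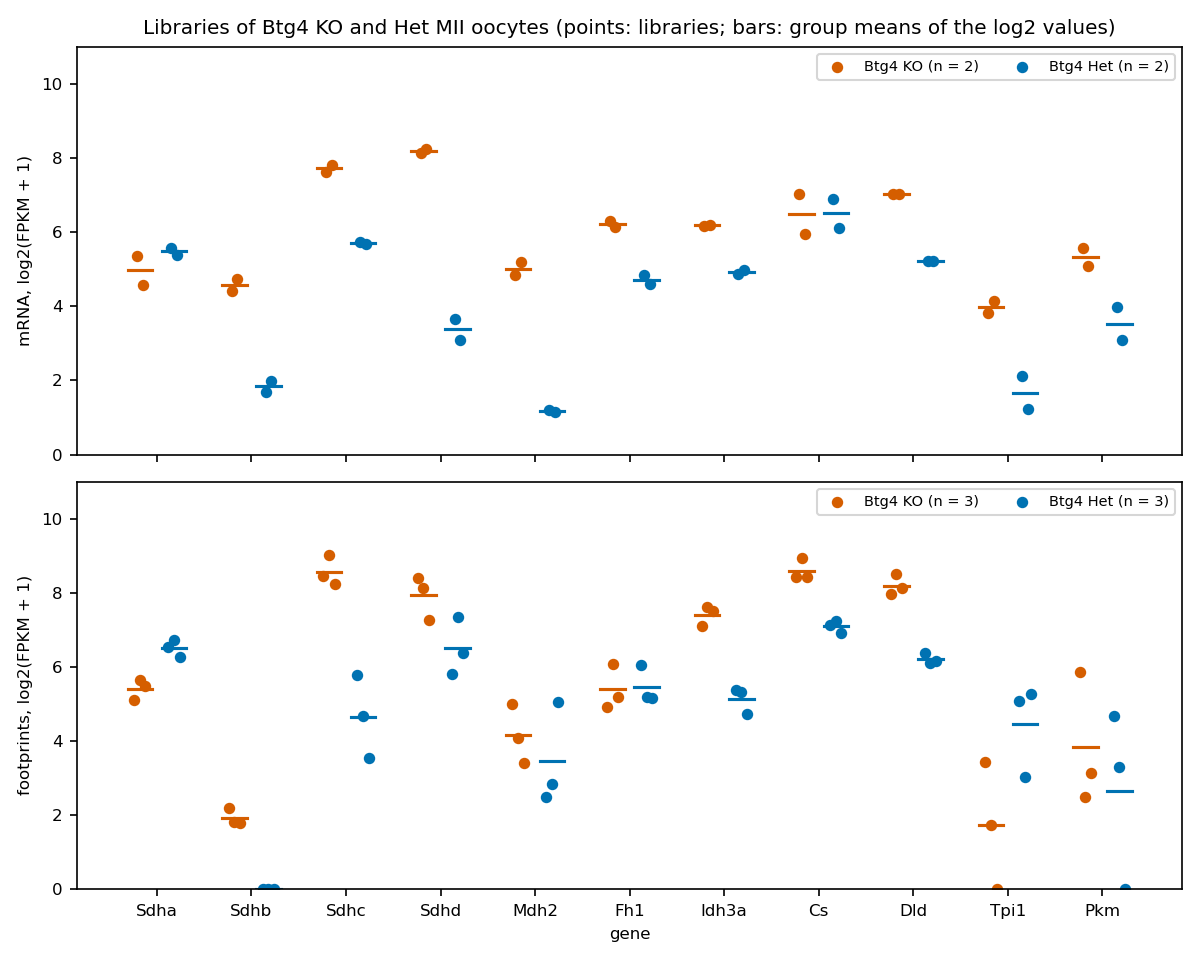
Values of 11 members in each library, log2(FPKM + 1), mRNA above and footprints below, Btg4 KO left of Btg4 Het for each gene, with bars at the group means of the log2 values. Sdhc, Idh3a and Dld separate in both panels, Sdhd and Mdh2 separate in mRNA only, and for Sdha the KO points lie below the Het points in footprints.

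Another 3 subunits of pyruvate entry had every KO footprint library above every Het library without passing. Pdhb had 67.8, 24 and 31.9 FPKM in KO against 11.5, 0 and 3.7 FPKM in Het (3.30, SE 0.98, adjusted p = 0.136). Dlat had 14.6, 34.6 and 24.3 FPKM in KO against 6.94, 4.31 and 0 FPKM in Het (2.79, SE 0.89, adjusted p = 0.16), and Pdhx had 118, 133 and 94.1 FPKM in KO against 38.7, 45.6 and 74.7 FPKM in Het (1.14, SE 0.39, adjusted p = 0.186). With Dld, 4 of the 5 subunits of the pyruvate dehydrogenase complex did not overlap between the genotypes, and Pdha1 did. Over the 35 members tested, 8 had every KO library above every Het library and 1, Sdha, below, where 16.8% and 7.69% of all genes did. Sdha had 33.2, 48.7 and 43.3 FPKM of footprints in KO against 92.1, 104 and 76 FPKM in Het (-1.11, SE 0.36, adjusted p = 0.164).

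The 2 most abundant members did not pass in footprints. Bpgm, which ranked 4 of all genes in KO and 3 in Het, had 14884, 22729 and 15146 FPKM in KO against 28416, 29219 and 18663 FPKM in Het (-0.53, SE 0.30, adjusted p = 0.398), with overlap. Ldhb had 433, 66.3 and 121 FPKM in KO against 1402, 223 and 453 FPKM in Het (-1.78, SE 0.88, adjusted p = 0.348). In each genotype the number-1 library was the highest for Ldhb and the number-2 library the lowest, and every KO library was below the Het library of its number. With the replicate number as a block, Ldhb passes in the same direction (adjusted p = 0.0325). Bpgm made up 83.1%, 89% and 87.3% of the members' footprint FPKM in KO against 91.6%, 95.6% and 92.8% in Het.

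Among the remaining glycolysis genes KO 1 stood apart. Without Bpgm, the glycolysis footprints summed to 336 FPKM in KO 1, against 23.5 and 34.8 FPKM in KO 2 and KO 3 and 133, 66.1 and 104 FPKM in Het 1 to 3. Pgam1, for example, had 102, 0 and 12.4 FPKM in KO against 34.4, 0 and 17.3 FPKM in Het, and Aldoa 69.2, 3.62 and 8.7 FPKM in KO against 12, 11.1 and 3.64 FPKM in Het. KO 1 also listed the most genes with at least 1 FPKM of the 6 footprint libraries, 8398. Gapdh was listed at 0 in each footprint library but KO 2, where it had 2.02 FPKM, although its mRNA was at 34.5 and 19.7 FPKM in KO and 43.2 and 26.4 FPKM in Het. Gapdh, Pgk1, Ldha, Eno1, Tpi1, Pgam1 and Aldoa have many processed pseudogenes in mouse, and the sources used here do not say how reads that match several places were counted. The values of these 7 genes are therefore uncertain. By sums, TCA cycle footprints held 1714, 2133 and 1452 FPKM in KO against 839, 923 and 696 FPKM in Het, with no overlap. Footprints of pyruvate use without Ldhb held 542, 590 and 590 FPKM in KO against 235, 128 and 187 FPKM in Het.

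Translational efficiency, the change in footprints beyond that in mRNA, was tested as a genotype-by-assay interaction in a fit of the 10 Btg4 libraries together. None of 34 members passed (7 had an unadjusted p under 0.05), where 0.853% of all 7382 genes rose and 0.447% fell. The lowest p was that of Sdhd, whose efficiency changed by -3.39 (SE 0.73, adjusted p = 0.0666). Its mRNA was 30.3-fold higher in KO and its footprints 2.59-fold. The call for Sdhd turns on the setting. Sdhd passes with a mean of at least 5 FPKM and with no filter (adjusted p = 0.0495 in both). It also passes with a weight for each assay (adjusted p = 0.0258) and without Het 1 of the footprints (adjusted p = 0.0356). It does not pass with the replicate block (adjusted p = 0.0813), nor without KO 2 (adjusted p = 0.11) or KO 3 (adjusted p = 0.119) of the footprints. Without 1 mRNA library the change lay between -3.68 and -3.1. Tpi1 (-5.03, SE 1.45, adjusted p = 0.156) passes with a weight for each assay. Mdh2 had -3.14 (adjusted p = 0.241) and Cs 1.51 (adjusted p = 0.282). The footprint values of Tpi1 and Mdh2 rest on the few reads given above. The median was -0.59 in glycolysis, 0.13 in pyruvate use and the TCA cycle, -1.68 in the respiratory chain and 0.24 over all genes.

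Tail lengths were sparse in MII oocytes. A tail value was listed for 31 of the 41 members in wild-type FGO, 2 in wild-type MII oocytes, 8 and 6 in the KO libraries and 3 in the Het library, and the number of reads behind each value is unknown. In wild-type FGO the members had a median of 56.5 nt, against 54.1 nt over 6353 genes, and ranged between 35 nt for Idh1 and 88.5 nt for Idh3b. Glycolysis, pyruvate use and the TCA cycle had medians of 56.5, 55.9 and 58.2 nt there. Bpgm and Ldhb, the only members with a value in every tail library, differed. Bpgm had 119.2 nt in wild-type MII oocytes against 55.8 nt in wild-type FGO, a difference that 5.8% of the 224 genes measured in both reached. Ldhb had 38.2 nt in MII oocytes against 46.6 nt in FGO, where the median difference of those genes was -7.58 nt. These are single libraries and carry no test.

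Between the genotypes, Bpgm had 132.0 and 160.2 nt in KO against 141.9 nt in Het, so that the Het value lay between the KO values (4.1 nt, SE 33.5, adjusted p = 0.943). Ldhb had 21.1 and 23.0 nt in KO against 49.4 nt in Het, a change of -27.4 nt (SE 2.8) that did not pass over the 272 genes tested (adjusted p = 0.133). No gene passed in that fit (0%), in which only the KO pair measures the spread (1 residual degree of freedom) and which takes the Het library to vary like it; 65 of the 272 genes had an unadjusted p under 0.05, Ldhb among them, and the median change was -9.21 nt. Pkm had 20.3 and 25.4 nt in the KO libraries and 70.2 nt in wild-type FGO, and Dld had 65.0 and 56.9 nt in KO and 50.0 nt in FGO. Neither had a Het value. Cs had 100.7 nt in Het, 51.6 nt in the authors' merge of wild-type and Het MII oocytes and 48.3 nt in FGO, and no KO value. Of the members that rose in mRNA, Sdhc had 52.3 nt in KO 1, Sdhd 43.4 nt in KO 2 and Mpc2 40.4 nt in KO 1, each measured in 1 MII library.

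**Figure D4:**
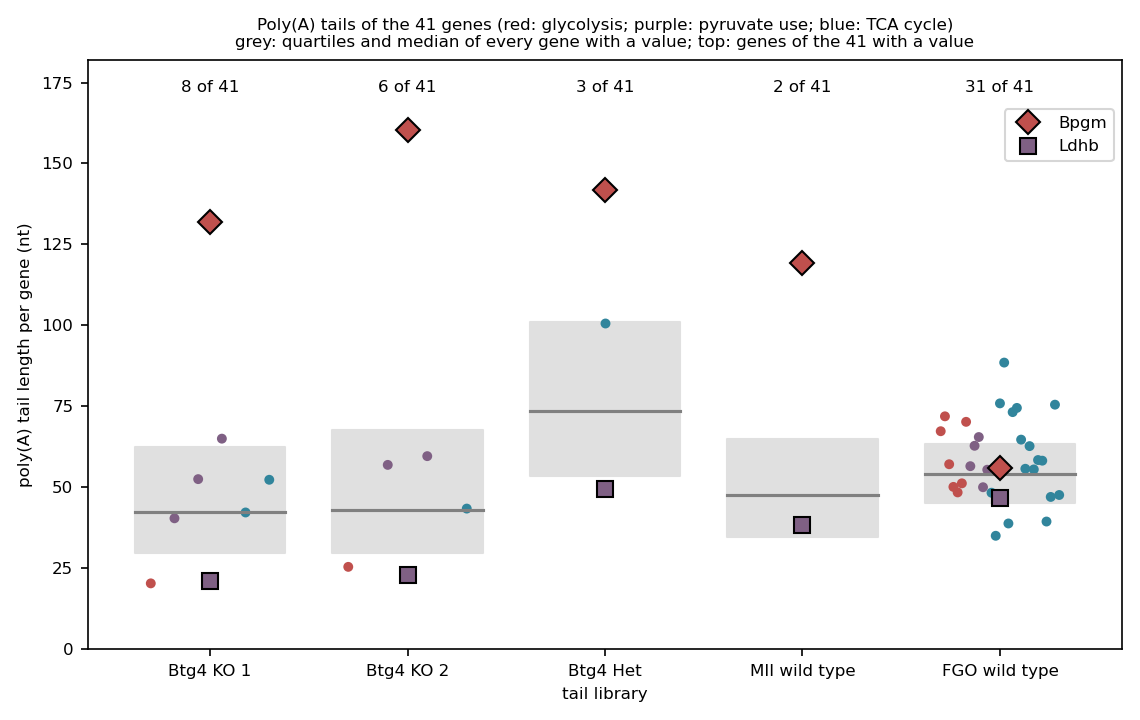
Poly(A) tail length in nucleotides per gene in 5 libraries, with each member that had a value as a point (counts at the top), and the quartiles and median of every gene with a value in grey. Bpgm (diamonds) lies above the grey range in each MII library and within it in FGO, and Ldhb (squares) lies below the median of each library.

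The change with maturation and the change in Btg4 KO come from different libraries, and across the members they ran against each other in mRNA. Spearman's rho between the single-oocyte ratio and the mRNA change was -0.445 over 36 members and -0.572 over 7261 genes, given as a description across genes, which are not independent replicates. Of the 26 tested members with a ratio below 0, 11 (42.3%) rose in KO mRNA, and of the 10 with a ratio of 0 or above, 2 (20%) did. Over all genes these shares were 31.6% and 7.24%. Those 2 were Idh3g (ratio 0.32) and Fh1 (ratio 0.69). Without MII oocyte 19, Idh3g (ratio -0.46) leaves them and Sdhc, whose ratio of -0.03 has no fixed sign, takes its place, so that the counts are again 11 of 26 and 2 of 10. Ogdh, with a ratio of -2.38, and Eno1, with -2.02, had mRNA changes of -0.53 and -0.22. Bpgm, with the highest ratio, had the lowest mRNA change of the members. For footprint changes in KO, rho was -0.203 over 35 members and -0.168 over 7184 genes.

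**Figure D5:**
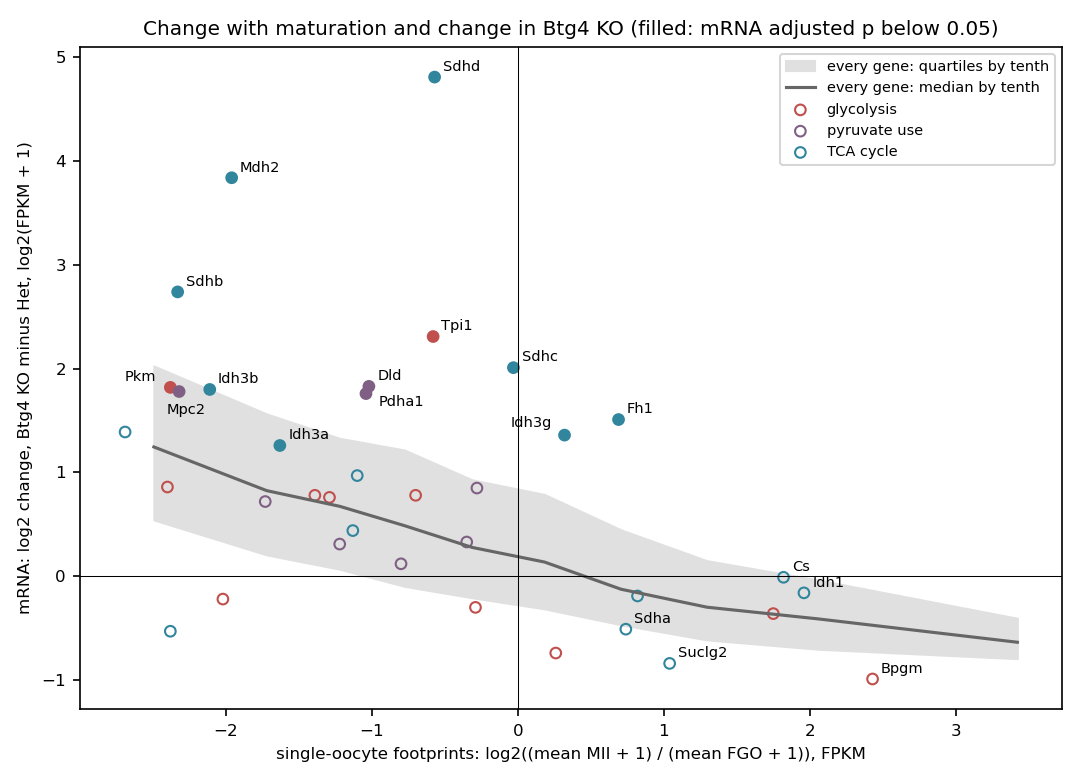
Each member by its single-oocyte log2 ratio of MII over FGO footprints (x) and its mRNA log2 change in Btg4 KO against Het (y), filled where it passed, over the median and quartiles of every gene in 10 bins of x. Sdhd, Mdh2 and Sdhb lie above the quartiles of genes with like ratios, and Bpgm lies at the lower right.

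Other genes of the pathway were taken from a list of 58 by name. In mRNA, where 18.9% of all 8865 genes rose, the paralogues Ldhc and Aco1 rose. So did 2 of 3 transporters, Slc16a1, a lactate and pyruvate carrier, and its chaperone Bsg. Of the shuttles and exits of malate and citrate 3 of 9 rose: Got1 (4.26, adjusted p = 0.000573), Me1 and Me2. Got1, the cytosolic aspartate aminotransferase, had 37.3 and 63.9 FPKM in KO against 1.59 and 1.6 FPKM in Het. None of 9 regulators, 2 gluconeogenesis genes or 5 genes of the pentose phosphate pathway passed, with unadjusted p under 0.05 for 2, 1 and 0 of them. The genes tested in footprints were 5 paralogues, 3 transporters, 9 regulators, 1 gluconeogenesis gene, 6 of the pentose phosphate pathway and 8 of malate and citrate traffic. Of all these, Slc16a1 was the only gene that rose, where 3.21% of all 8526 genes did. It had 60.8, 72 and 71.6 FPKM in KO against 19.7, 9.69 and 15.2 FPKM in Het (2.17, adjusted p = 0.0467).

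In single oocytes 33 genes of that list could be compared, and 5 (15.2%) had a ratio of at least 1 and 10 (30.3%) one of at most -1, where 27.9% and 31.3% of all genes did. The 5 were Taldo1 (3.37) and Rpia (2.5) of the non-oxidative pentose phosphate pathway, Pfkfb2 (2.31), which makes fructose 2,6-bisphosphate, Pdp1 (1.75), the phosphatase that activates pyruvate dehydrogenase, and the paralogue Pdha2 (1.65). Taldo1, transaldolase, was at 7.9, 50.3 and 135 FPKM in the lowest, median and highest MII oocyte and at 0, 4.09 and 8.84 FPKM in FGO, so that the ranges barely overlap. G6pdx and Pgls of the oxidative branch had ratios of -1.30 and -1.68, and Tkt, transketolase, one of -1.88. Aco1, Ogdhl, Bsg and Slc25a1, the citrate carrier, had ratios between -2.34 and -1.99. The other 3 at or below -1 were Fbp1, a fructose-1,6-bisphosphatase (-1.82), Me2, the mitochondrial NAD-dependent malic enzyme (-1.77), and Ldhc, the germ-cell lactate dehydrogenase subunit (-1.56). Pdha2, with a ratio of 1.65, was above 0 in 6 of 20 MII oocytes and in 1 of 18 FGO. Pgls was above 0 in 1, Slc25a1 in 3 and Me2 in 3 of the MII oocytes, so the sizes of these ratios are uncertain.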

How the data were processed

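Footprints and mRNA were deposited by the authors as FPKM per gene, relative to each library's total. The submitters' processing notes name Trim Galore 0.4.2 and cutadapt 1.14, Cufflinks 2.2.1, STAR 2.5.3a, Bowtie2 2.2.2, and the genome builds hg19 and mm9, without saying what each was used for. Poly(A) tails were deposited by the authors as nucleotides per gene, with 0 for no value, here taken as missing. The sources used here name neither a tail caller nor a minimum of reads. Of 105 samples in the labels, 53 had values in the 3 tables, and the other 52 were not analysed here. Groups came from the labels' titles.

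The Btg4 table was used after 231 exact repeat rows were dropped. KO was compared with Het on log2(FPKM + 1), two-sided, with limma 3.58.1 (lmFit, then eBayes with a variance trend; R 4.3.3). A gene entered where its mean reached 1 FPKM, and p was Benjamini-Hochberg adjusted over the whole table tested. Each adjusted p printed here is from such a fit. The tail fit used 3 libraries (KO, KO and Het) in nucleotides. The fits were tested on simulated data. No label tells animals or cultures apart, so that p-values measure the spread between these libraries, which may be technical. FPKM hold no counts, and the depth of mRNA and tail libraries is unknown. Footprint reads of a member were read off where its values below 12 reads (at least 10 of them) were whole multiples of the lowest within 0.1 reads in at least 80% of cases.

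Same-numbered KO and Het footprint libraries deviated together (r = 0.255, 0.422 and 0.162 across genes). Those with unlike numbers had r between -0.319 and 0.0977, so the replicate number may pair the libraries. The main fits did not use that number, and the replicate block, an alternative, did. The members and lists were chosen with earlier results of these data known. Values in every library are given for members past the threshold in any fit and for the 5 highest and 5 lowest single-oocyte ratios. Alternatives were other scalings, pseudocounts and filters, the replicate block, assay weights, and leaving out libraries or oocytes. Other steps ran in Python 3.11.15 with pandas 2.3.3, numpy 2.4.6 and matplotlib 3.10.9. The result of 1 other gene of the pathway is not reported here.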

Additional observations from a re-analysis of the deposited data

How the results depend on the processing

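In mRNA the 13 rises became 7 with no filter and 20 with the replicate block (adding Gpi1, Pfkp, Pgk1, Mpc1, Dlat, Dlst and Suclg1), and 11 to 16 when 1 library was left out. The count of members that fell, 0, became 1 after median scaling and after quantile normalization (Suclg2), 3 with the replicate block (Bpgm, Pgam1 and Suclg2) and 0 to 1 with 1 library left out (Bpgm without Het 2). The 2 same-numbered mRNA pairs deviated together (r = 0.627), but 2 pairs sharing a number do not show that they are paired. Median scaling keeps 10 of the 13 rises (not Mpc2, Idh3a and Idh3g) and quantile normalization 11 (not Idh3a and Idh3g). The glycolysis median minus that of pyruvate use and the TCA cycle, -0.21 in mRNA, became -0.64 with a mean of at least 5 FPKM, -0.69 with no filter and -0.50 without Idh1 and Mdh1, and lay between -1.05 and 0.26 with 1 library left out, positive without Het 1, so that this difference has no fixed sign. In footprints the 4 rises became 1 (Sdhc) after median scaling, which moves the median of all genes to -0.17, and 0 to 3 with 1 library left out, while the replicate block kept 4 and added 1 fall (Ldhb). The footprint difference of medians lay between -2.25 and -0.92. For translational efficiency the replicate block gave 0 rises and 0 falls, and the 0 falls became 1 with a mean of at least 5 FPKM, 1 with no filter, 2 with a weight for each assay, and 0 to 1 with 1 library left out; the difference of medians, -0.71, lay between -1.91 and -0.08. In single oocytes a pseudocount of 10 left 2 members at or above 1 and 8 at or below -1, and leaving out 1 oocyte gave 4 to 5 and 15 to 20. With medians over oocytes Gapdh turned to -0.50, and without MII oocyte 19 Idh3g turned to -0.46. The tail change of Bpgm became -9.98 nt without KO 2 and 18.23 nt without KO 1. The cause of these moves was not tested. Depth limits the footprint calls of members with few reads, and the depth behind mRNA and tail values is unknown. The difference of medians, 0.36 in single oocytes, became -0.05 with equal totals. The other alternatives kept the direction of these differences and moved the counts named here by at most 1.5 times.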
